A study of Homo sapiens with 4 samples.

Results

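The genes described here encode integrins, other cell adhesion molecules and the receptors that guide T cells to tissues, and their RNA was compared between Jurkat cells with a hairpin against SOX4 and Jurkat cells with a scrambled hairpin. They were chosen by name, with earlier results of these data known. All 35 genes of a list of such molecules were found, by symbol, among the 64252 gene IDs of the deposited count table. Jurkat is a human T cell acute lymphoblastic leukemia line, and SOX4 is a transcription factor of early lymphocyte development. Both groups carried a short hairpin RNA, against SOX4 in one (sh-SOX4, n = 2) and scrambled in the other (sh-Scb, n = 2), with no further treatment or time point named in the labels. The sources used here do not give whether a group was a pool or a clone, nor where on the SOX4 transcript the hairpin binds.

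T cells leave the blood in steps. Selectins catch sugar-bearing ligands such as PSGL-1 and make the cell roll, chemoattractant receptors then signal through G proteins, and this signal, carried by talin and kindlin to the inner tails of the integrins, switches integrins to a form that binds tightly to Ig-family ligands or to matrix. Integrins are dimers of an alpha and a beta subunit, and the pairing sets the ligand: ITGAL with ITGB2 forms LFA-1, which binds ICAM proteins, and ITGA4 with ITGB1 or ITGB7 binds VCAM-1, fibronectin or the gut addressin MAdCAM-1. In T-ALL the same receptors are known for their part in holding leukemic cells in the marrow and in spread to the nervous system.

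Library totals were 32872606 and 30830081 counts for sh-SOX4, and 36636219 and 29093287 counts for sh-Scb. SOX4, the targeted gene, had 191 and 199 CPM (counts scaled to library depth) in sh-SOX4, against 271 and 277 CPM in sh-Scb, so that 71.1% of the control level was left (edgeR, quasi-likelihood test, Benjamini-Hochberg adjusted p = 1.24e-05). The label of T-ALL cells was checked against 11 T cell genes, all of which were tested, and 6 of them were higher and 2 lower in sh-SOX4; their summed level was 1876 to 1962 CPM in sh-SOX4 and 1598 to 1653 CPM in sh-Scb. Markers of other cells ranged from 0 counts to levels above those of many of the 35 genes. Of 5 endothelial markers only PECAM1, which is also one of the 35 genes, had enough counts to be tested; CDH5 had 0 counts in all libraries, and VWF, KDR and TEK had at most 11 in any. Of 5 epithelial markers 1 was tested, with a summed level of 1.17 to 1.18 CPM in sh-SOX4 and 0.767 to 1.26 CPM in sh-Scb, and EPCAM had 1 count in all. Of 8 myeloid markers 3 rose and 1 fell, with LYZ at 0 and sums of 40.8 to 41.1 CPM in sh-SOX4 and 19.0 to 22.1 CPM in sh-Scb. S100A9 rose, with 23.4 and 23.1 CPM in sh-SOX4 and 4.63 and 3.82 CPM in sh-Scb. S100A8 rose, with 42 and 36 counts in sh-SOX4 and 0 and 0 in sh-Scb. AIF1 also rose, CD68 fell, and CD14 and CSF1R did not pass. Of 6 B cell markers 1 rose and 2 fell, with sums of 15.05 to 16.69 CPM in sh-SOX4 and 67.36 to 69.34 CPM in sh-Scb. CD79A fell, with 13.1 and 13.4 CPM in sh-SOX4 and 67.2 and 65.9 CPM in sh-Scb. CD79B rose, with 2.11 and 0.907 CPM in sh-SOX4 and 0.476 and 0.365 CPM in sh-Scb. Of 5 platelet markers 2 fell, GP1BA and the integrin gene ITGA2B, with PF4, PPBP and GP9 at 0 and sums of 4.50 to 4.86 CPM in sh-SOX4 and 12.6 to 12.8 CPM in sh-Scb. Of 5 fibroblast markers COL1A1 fell and COL1A2 was at 0, with sums of 19.44 to 19.96 CPM in sh-SOX4 and 26.75 to 29.06 CPM in sh-Scb. The part of such cells in the changes below was not tested.

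All 35 genes passed the filter on low counts. Of these, 15 rose and 10 fell in sh-SOX4, which is 71.4% called. Of all 19897 gene IDs tested, 44.1% were called, 23.2% higher and 20.9% lower. The genes were chosen with earlier results of these data known, so the shares set side by side here describe the list only. Calls are more frequent among well-expressed genes, and 20 of the 26 genes with a mean of at least 10 CPM were called, 76.9%, against 62.7% of all IDs at that level. The median log2 fold change was 0.03, beside -0.01 for all IDs tested, so the changes went both ways and centred near 0. Changes at or beyond 1 log2 unit were called for 5 genes, 14.3% of 35, against 9.45% of all IDs: L1CAM, JAM3, ITGA6 and ITGB7 fell and FERMT3 rose. In 29 of the 35 genes the CPM ranges of both groups were apart, 82.9% beside 72.9% of all IDs. Higher calls made up 52.5% of calls over all IDs and 40.8% with scaling to library totals alone, under which 12 of the 35 genes rose and 10 fell. In these bulk libraries fewer cells with a transcript and less of it per cell cannot be told apart.

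**Figure D1:**
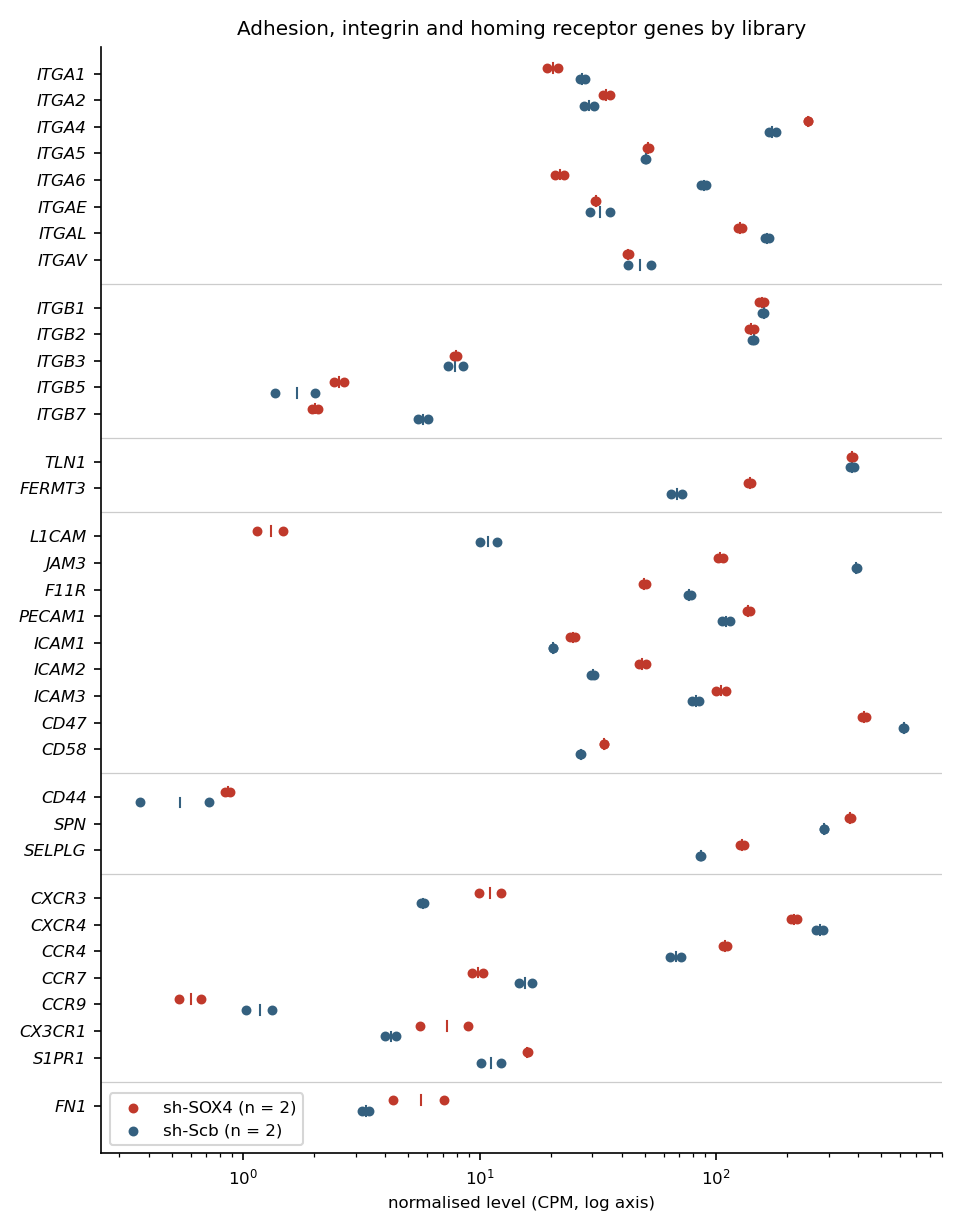
Normalised level of each gene in every library (CPM, log axis), with sh-SOX4 above sh-Scb in each row, points for libraries and ticks for the mean of 2; grey lines part the classes. JAM3, ITGA6 and L1CAM show the widest separation, while TLN1, ITGB1 and ITGB2 lie on top of each other.

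**Figure D2:**
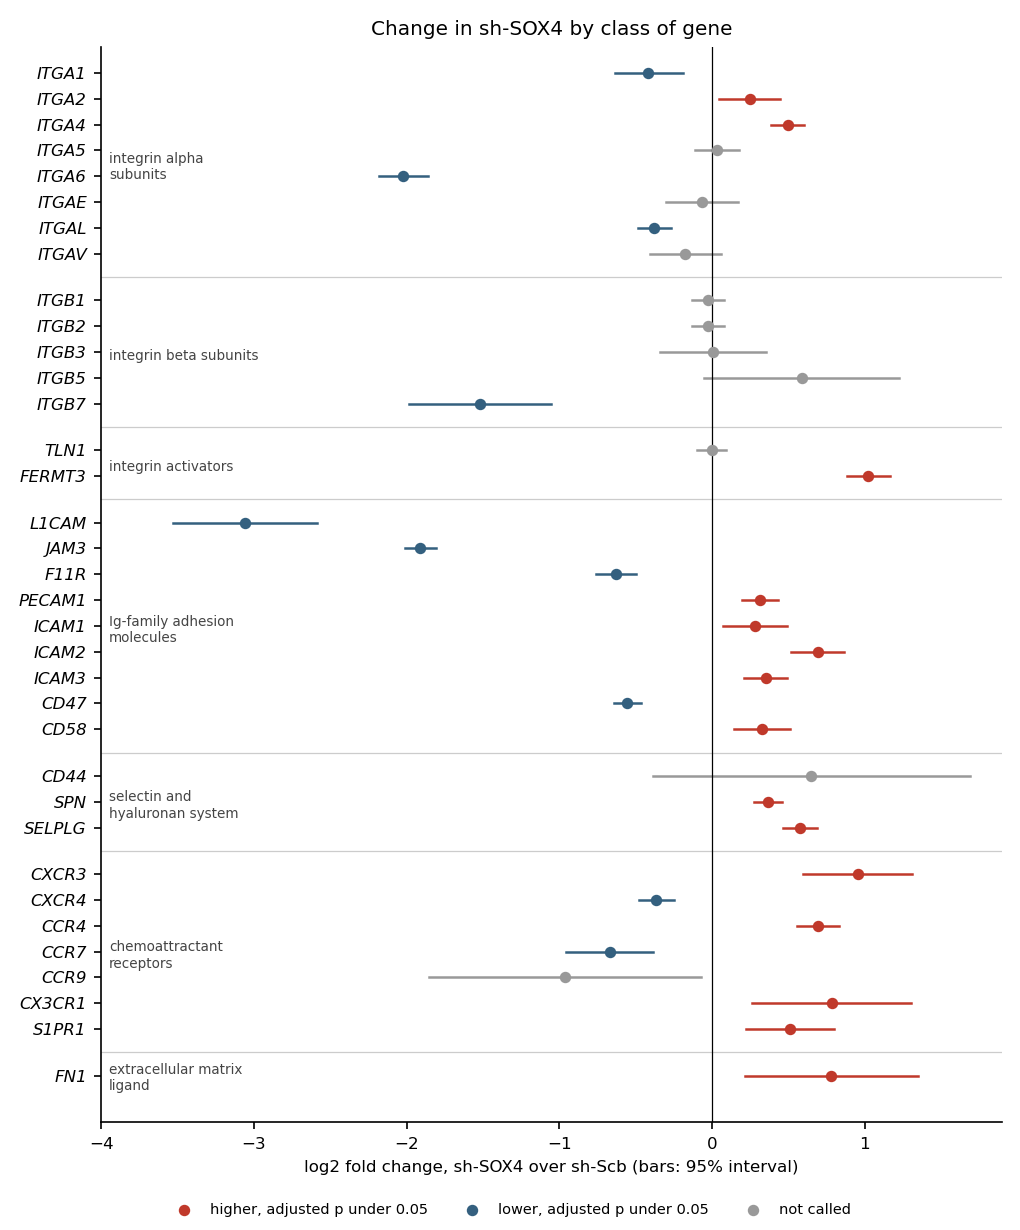
Log2 fold change of sh-SOX4 over sh-Scb for each gene with its 95% interval from the quasi-likelihood fit, not adjusted for the number of genes; colour gives the call at an adjusted p under 0.05. Falls reach -3.06 for L1CAM and rises 1.03 for FERMT3, and all 9 Ig-family genes were called, against 44.1% of all IDs tested.

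Promoter sequence was available from RefSeq (GRCh38.p14) for 25 of the 35 genes, and the bases before the most upstream RefSeq start were searched. They are shown for the 3 called genes that fell most and the 3 that rose most among those whose window ran for at least 150 bases before it met an annotated exon of the gene. Capitals mark matches to the searched letters: ACAAAG and ACAATG, cores bound by SOX proteins, ACGTG, the core of the hypoxia response element, CACGTG, the E-box that contains it, and GGGCGG, the GC box, each on either strand.
ITGA6: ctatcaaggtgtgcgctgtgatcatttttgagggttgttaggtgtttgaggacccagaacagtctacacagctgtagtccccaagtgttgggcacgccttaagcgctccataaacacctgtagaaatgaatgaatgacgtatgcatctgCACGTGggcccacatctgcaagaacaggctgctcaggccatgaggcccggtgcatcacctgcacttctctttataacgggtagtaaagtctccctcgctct
ITGB7: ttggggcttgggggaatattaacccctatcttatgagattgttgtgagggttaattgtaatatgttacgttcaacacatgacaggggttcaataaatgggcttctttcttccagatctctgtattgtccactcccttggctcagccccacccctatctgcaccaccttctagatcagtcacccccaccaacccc
CD47: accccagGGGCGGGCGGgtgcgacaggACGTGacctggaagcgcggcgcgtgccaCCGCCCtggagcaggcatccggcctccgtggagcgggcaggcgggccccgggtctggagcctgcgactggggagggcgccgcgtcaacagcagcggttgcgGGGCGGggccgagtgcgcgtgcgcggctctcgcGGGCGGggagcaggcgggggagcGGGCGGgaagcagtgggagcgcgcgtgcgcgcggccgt
FERMT3: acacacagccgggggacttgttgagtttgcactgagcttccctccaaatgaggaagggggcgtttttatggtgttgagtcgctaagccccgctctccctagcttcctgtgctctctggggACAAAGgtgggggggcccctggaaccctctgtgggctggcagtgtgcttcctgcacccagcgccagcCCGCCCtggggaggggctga
CXCR3: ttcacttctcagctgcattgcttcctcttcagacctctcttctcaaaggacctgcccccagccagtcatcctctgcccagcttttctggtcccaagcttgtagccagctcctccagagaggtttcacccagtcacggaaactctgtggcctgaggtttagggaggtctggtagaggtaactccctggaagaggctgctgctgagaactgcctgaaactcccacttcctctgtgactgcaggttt
CX3CR1: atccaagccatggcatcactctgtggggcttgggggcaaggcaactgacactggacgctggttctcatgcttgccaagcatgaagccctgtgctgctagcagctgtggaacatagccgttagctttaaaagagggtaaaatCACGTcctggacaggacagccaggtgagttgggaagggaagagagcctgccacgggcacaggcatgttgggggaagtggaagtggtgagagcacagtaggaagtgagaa
They lie at chr2:172427086-172427335 on the plus strand (ITGA6), chr12:53207308-53207501 on the minus strand (ITGB7), chr3:108091032-108091281 on the minus strand (CD47), chr11:64206471-64206677 on the plus strand (FERMT3), chrX:71618518-71618761 on the minus strand (CXCR3) and chr3:39281736-39281985 on the minus strand (CX3CR1). The CD47 stretch lies before the RefSeq start but within the GENCODE gene, which reaches base 108091862, in an intron of a transcript that starts further upstream; the others lie before the first base of the GENCODE gene. The ITGA6 stretch holds an E-box, which is an ACGTG match on both strands, and CD47 and CX3CR1 each hold an ACGTG match. FERMT3 holds an ACAAAG match, while the ITGB7 and CXCR3 stretches hold none of the letters searched. Over whole windows of 250 bases, ACAAAG was found in 1 of 25 genes, FERMT3, against 13.7% of all windows, and ACAATG in 0 of 25 against 9.45%. ACGTG was found in 4 of 25 against 18.6%, among them 2 of 6 genes that fell and 1 of 11 that rose, CACGTG in 1 of 25 against 6.46%, and GGGCGG in 13 of 25 against 42.2%. The median GC content was 64.4% in the windows of these 25 genes and 57.6% in all windows, and its part in these shares was not tested. A match is a run of letters and not a site shown to be bound.

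Among the integrin alpha subunits, 2 of 8 rose and 3 fell, with a median log2 fold change of -0.12. This is 62.5% called, beside 44.1% of all IDs tested. ITGA6 (chromosome 2, 172427354 to 172506282), the alpha subunit of the laminin receptors, had 22.7 and 20.9 CPM in sh-SOX4, against 90.9 and 86.1 CPM in sh-Scb. Both sh-SOX4 libraries were far below both sh-Scb libraries, at 24.6% of their level, with a log2 fold change of -2.02 (SE 0.072, edgeR adjusted p = 4.28e-08). ITGA4, the alpha subunit of VLA-4, had 245 and 244 CPM in sh-SOX4, against 167 and 180 CPM in sh-Scb. It rose by 0.50 on the log2 scale (SE 0.049, edgeR adjusted p = 2.28e-05), with the groups apart. ITGAL, the alpha subunit of LFA-1, had 124 and 129 CPM in sh-SOX4, against 161 and 167 CPM in sh-Scb, and fell by 0.38 (SE 0.048, edgeR adjusted p = 0.000136). The collagen receptor subunits ITGA1 and ITGA2 are neighbours, 30.1 kb apart on chromosome 5, and went opposite ways. ITGA1 averaged 20.4 ± 1.6 CPM in sh-SOX4 and 27.2 ± 1.05 CPM in sh-Scb (SD, n = 2), a log2 fold change of -0.42 (edgeR adjusted p = 0.00683). ITGA2 had 35.6 and 33.3 CPM in sh-SOX4, against 27.7 and 30.4 CPM in sh-Scb, a log2 fold change of 0.25 (edgeR adjusted p = 0.0486). The call of ITGA2 was lost under 9 of 13 other settings, where adjusted p-values by edgeR reached 0.539.

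ITGA5, the alpha subunit of the main fibronectin receptor, had 52.2 and 50.8 CPM in sh-SOX4, against 50.1 and 50.7 CPM in sh-Scb, and did not pass. Its log2 fold change was 0.03 with a 95% interval of -0.11 to 0.17 (edgeR adjusted p = 0.727). ITGAE, the subunit that pairs with ITGB7 to bind E-cadherin, had 31.2 and 30.7 CPM in sh-SOX4, against 35.7 and 29.2 CPM in sh-Scb, which spanned the sh-SOX4 values. ITGAV, a subunit of receptors for vitronectin and other RGD-bearing proteins, had 42.1 and 42.7 CPM in sh-SOX4, against 42.6 and 53.3 CPM in sh-Scb, and did not pass (edgeR adjusted p = 0.204). Its value rested on the sh-Scb libraries: it was -0.33 on the log2 scale and called without sh-Scb replicate 1 (adjusted p = 0.0032), and -0.01 without sh-Scb replicate 2 (adjusted p = 0.95).

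Of 5 integrin beta subunits, ITGB7 fell and the other 4 did not pass, 20% called beside 44.1% of all IDs tested. ITGB7, partner of ITGA4 and ITGAE in gut homing, had 2.08 and 1.95 CPM in sh-SOX4, against 5.50 and 6.08 CPM in sh-Scb, which is 34.9% of the control level (log2 fold change -1.52, SE 0.21, edgeR adjusted p = 0.000219). Of its exonic bases 42.1% also lie in ZNF740 on the opposite strand, which was counted 1843 and 1790 times in sh-SOX4 and 2545 and 1881 times in sh-Scb, so reads of the pair may be mixed. ITGB1, the common partner of many alpha subunits, had 159 and 152 CPM in sh-SOX4, against 160 and 157 CPM in sh-Scb. ITGB2, the leukocyte beta subunit, had 138 and 144 CPM in sh-SOX4, against 145 and 142 CPM in sh-Scb. For both genes the libraries of the groups overlapped, and the 95% interval of the log2 fold change was -0.13 to 0.08. ITGB3 and ITGB5, partners of ITGAV, were low. ITGB3 averaged 7.92 ± 0.175 CPM in sh-SOX4 and 7.90 ± 0.806 CPM in sh-Scb (SD, n = 2), and 51.6% of its exonic bases are shared with AC068234.1, a protein-coding gene on the same strand. ITGB5 averaged 2.55 ± 0.185 CPM in sh-SOX4 and 1.69 ± 0.459 CPM in sh-Scb (SD, n = 2), with an edgeR adjusted p of 0.124.

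The proteins that switch integrins on differed from each other. FERMT3, kindlin-3, the blood cell kindlin that binds integrin beta tails and is mutated in leukocyte adhesion deficiency type III, had 136 and 141 CPM in sh-SOX4, against 72.0 and 64.3 CPM in sh-Scb. It rose 2.04-fold, more than any other of the 35 genes in this fit, with a log2 fold change of 1.03 (SE 0.062, edgeR adjusted p = 9.43e-07). TLN1, talin, which links beta tails to actin, had 371 and 380 CPM in sh-SOX4, against 369 and 383 CPM in sh-Scb. Its log2 fold change had a 95% interval of -0.10 to 0.09 around -0.002, and it did not pass.

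Levels per length, in CPM per kilobase of exon, set the subunits against each other roughly. The length takes in all annotated exons of a gene, and the transcripts expressed may be shorter. ITGA4 was the highest alpha subunit in sh-SOX4 at 30.9 CPM per kb, with ITGAL at 19.5. In sh-Scb ITGAL was highest at 25.3 CPM per kb, with ITGA4 at 21.9. Without division by length, ITGA4 was above ITGAL in sh-Scb too, with means of 173 and 164 CPM. Of the summed level per length of the 8 alpha subunits, ITGA4 made up 40.8% ± 0.082 in sh-SOX4 and 26.3% ± 0.797 in sh-Scb (SD, n = 2). ITGA6 made up 4.40% ± 0.259 in sh-SOX4 and 16.3% ± 1.0 in sh-Scb (SD, n = 2). Among the 5 beta subunits the make-up moved little for the abundant genes: ITGB1 made up 52.5% ± 1.41 in sh-SOX4 and 51.9% ± 0.296 in sh-Scb, and ITGB2 42.1% ± 1.56 in sh-SOX4 and 41.6% ± 0.168 in sh-Scb (SD, n = 2).

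**Figure D3:**
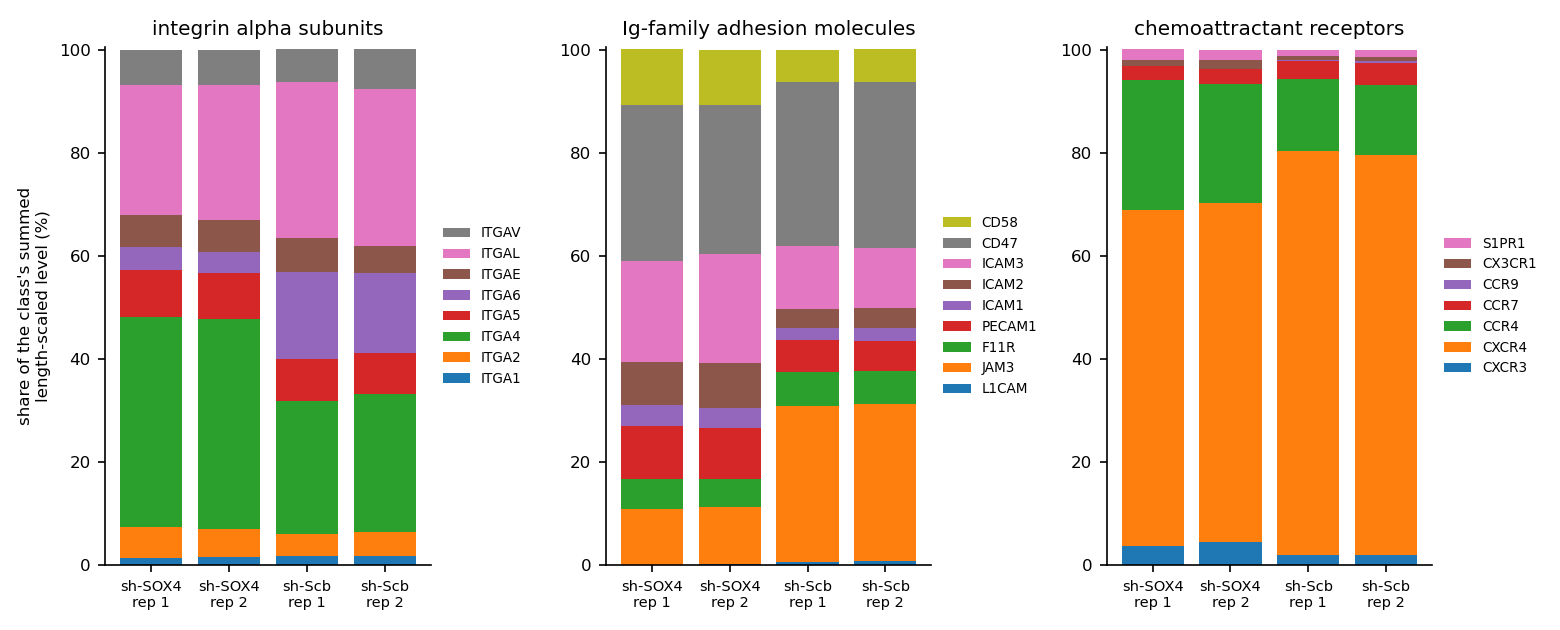
Share of each gene in the summed level per exonic length of its class, in percent, for each library, with the sh-SOX4 libraries on the left. ITGA6 holds 4.40% in sh-SOX4 and 16.3% in sh-Scb, JAM3 holds 10.8% and 11.1% in the sh-SOX4 libraries and 30.3% and 30.6% in the sh-Scb libraries, and CXCR4 holds 65.5% in sh-SOX4 and 78.0% in sh-Scb.

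All 9 Ig-family adhesion genes were called, 5 higher and 4 lower, with a median log2 fold change of 0.28. Over all IDs tested 44.1% were called, and 62.7% of those with a mean of at least 10 CPM. A second list of Ig-family genes, given below, had 42.9% called. L1CAM (chromosome X, 153861514 to 153886174), a neural adhesion molecule with homophilic and integrin binding, had 36 and 44 counts in sh-SOX4, against 379 and 355 counts in sh-Scb. The normalised level was 1.31 ± 0.243 CPM in sh-SOX4 and 10.9 ± 1.25 CPM in sh-Scb (SD, n = 2), and it was left at 12.0% of the control level (log2 fold change -3.06, SE 0.21, edgeR adjusted p = 2.15e-06). JAM3, the junctional molecule JAM-C, which is bound by JAM-B and by the leukocyte integrin Mac-1, had 102 and 107 CPM in sh-SOX4, against 393 and 390 CPM in sh-Scb. It had the smallest adjusted p of the 35 genes, 7.44e-09 by edgeR, with a log2 fold change of -1.91 (SE 0.046). F11R, JAM-A, a ligand of LFA-1, had 50.5 and 49.1 CPM in sh-SOX4, against 78.3 and 75.8 CPM in sh-Scb, a log2 fold change of -0.63 (edgeR adjusted p = 1.69e-05). CD47, the signal to phagocytes that binds SIRP alpha and associates with integrins, had 430 and 416 CPM in sh-SOX4, against 622 and 620 CPM in sh-Scb. It fell by 0.56 on the log2 scale (SE 0.039, edgeR adjusted p = 2.48e-06). In all 4 genes that fell both sh-SOX4 libraries were below both sh-Scb libraries. Groups were apart in 72.9% of all IDs tested.

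ICAM1, ICAM2 and ICAM3 rose, each by less than the falls of L1CAM and JAM3. ICAM4 and ICAM5, which are outside the 35 genes, did not pass (log2 fold changes 0.12 and -0.20, edgeR adjusted p = 0.654 and 0.468). Of the exonic bases of ICAM4, 100% also lie in AC011511.5 on the opposite strand, so its reads may be mixed. ICAM2, a constitutive LFA-1 ligand, had 47.0 and 50.3 CPM in sh-SOX4, against 29.7 and 30.5 CPM in sh-Scb, a rise of 0.69 on the log2 scale (SE 0.078, edgeR adjusted p = 5.94e-05). ICAM3, the ICAM of resting leukocytes, had 99.7 and 110 CPM in sh-SOX4, against 84.7 and 79.3 CPM in sh-Scb, a log2 fold change of 0.35 (edgeR adjusted p = 0.00116). ICAM1, the cytokine-induced ICAM, had 25.4 and 24.2 CPM in sh-SOX4, against 20.4 and 20.4 CPM in sh-Scb, a log2 fold change of 0.28 (edgeR adjusted p = 0.0341). Its call was lost under 10 of 13 other settings, and over all 13 the adjusted p-values ran from 0.0288 to 0.400. ICAM1 and ICAM3 lie 47.2 kb apart on chromosome 19. Reads may be shared with genes on the opposite strand for 71.2% of exonic bases in ICAM3, 26.8% in ICAM2 and 23.6% in ICAM1; the partner of ICAM2, PRR29, had 288 and 322 counts in sh-SOX4 and 188 and 166 in sh-Scb. The partner of ICAM3, AC114271.1, had 170 and 159 counts in sh-SOX4 and 191 and 136 in sh-Scb. For F11R 36.6% of exonic bases are shared with AL591806.3 on the same strand, which had 4 and 188 counts in sh-SOX4 and 52 and 19 in sh-Scb.

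PECAM1, a homophilic molecule of leukocytes, platelets and endothelium, had 139 and 135 CPM in sh-SOX4, against 114 and 106 CPM in sh-Scb, a log2 fold change of 0.32 (edgeR adjusted p = 0.000763), while CDH5 was at 0. CD58, the ligand of CD2, had 33.5 and 33.7 CPM in sh-SOX4, against 26.7 and 26.8 CPM in sh-Scb, a log2 fold change of 0.33 (edgeR adjusted p = 0.00927). The groups were apart for both. Per length, JAM3 was the second most abundant Ig-family gene in sh-Scb at 71.8 CPM per kb, after CD47 at 75.5; in sh-SOX4 it had 19.1 CPM per kb, below CD47 at 51.4 and ICAM3 at 35.5.

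In the selectin system, SELPLG and SPN rose. SELPLG, which encodes PSGL-1, the main leukocyte ligand of P-selectin, had 126 and 131 CPM in sh-SOX4, against 86.7 and 85.6 CPM in sh-Scb, a rise of 0.58 on the log2 scale (SE 0.050, edgeR adjusted p = 9.65e-06). SPN, the sialomucin CD43, which can bind E-selectin, had 371 and 364 CPM in sh-SOX4, against 286 and 285 CPM in sh-Scb, a rise of 0.37 (SE 0.040, edgeR adjusted p = 4.82e-05). For both genes the sh-SOX4 libraries lay above the sh-Scb libraries. CD44, the hyaluronan receptor and a selectin ligand in some glycoforms, was nearly absent, with 28 and 25 counts in sh-SOX4 and 27 and 11 in sh-Scb, or 0.861 ± 0.0304 CPM in sh-SOX4 and 0.540 ± 0.247 CPM in sh-Scb (SD, n = 2). Its 95% interval, -0.39 to 1.69 on the log2 scale, leaves a difference undecided at this depth.

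Of 7 chemoattractant receptors, 4 rose and 2 fell, 85.7% called beside 44.1% of all IDs tested. CXCR4, the receptor of the marrow chemokine CXCL12, had the highest level per length of the 35 genes, at 95.9 CPM per kb in sh-SOX4 and 123 CPM per kb in sh-Scb. It had 207 and 220 CPM in sh-SOX4, against 284 and 265 CPM in sh-Scb. It fell by 0.36 on the log2 scale (SE 0.051, edgeR adjusted p = 0.000266), with the groups apart. CCR7, the lymph node homing receptor that binds CCL19 and CCL21, had 9.27 and 10.3 CPM in sh-SOX4, against 14.7 and 16.6 CPM in sh-Scb, a log2 fold change of -0.67 (SE 0.13, edgeR adjusted p = 0.00182). CCR4, a receptor of skin homing and of helper and regulatory subsets, had 111 and 107 CPM in sh-SOX4, against 70.8 and 64.0 CPM in sh-Scb, and rose by 0.69 (SE 0.061, edgeR adjusted p = 1.14e-05). CXCR3, the receptor of interferon-induced chemokines, had 9.96 and 12.3 CPM in sh-SOX4, against 5.66 and 5.84 CPM in sh-Scb, a rise of 0.95 (SE 0.16, edgeR adjusted p = 0.00084). The groups were apart for each of these 4 receptors, as they were for 72.9% of all IDs tested.

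S1PR1, the sphingosine 1-phosphate receptor that lets T cells leave lymphoid organs, had 15.8 and 16.0 CPM in sh-SOX4, against 10.1 and 12.3 CPM in sh-Scb, a log2 fold change of 0.51 (edgeR adjusted p = 0.00917), which became 0.37 with an adjusted p of 0.0595 without sh-Scb replicate 1. CX3CR1, the fractalkine receptor, had 5.61 and 8.90 CPM in sh-SOX4, against 4.42 and 3.98 CPM in sh-Scb, a log2 fold change of 0.79 (edgeR adjusted p = 0.0205). The sh-SOX4 libraries differed from each other more than the sh-Scb libraries did, and without sh-SOX4 replicate 2 the value was 0.41 with an adjusted p of 0.209. CCR9, the gut and thymus homing receptor, had 21 and 16 counts in sh-SOX4 and 39 and 40 in sh-Scb, a log2 fold change of -0.97 that did not pass (edgeR adjusted p = 0.0761). Of the summed level per length of these receptors, CXCR4 made up 65.5% ± 0.545 in sh-SOX4 and 78.0% ± 0.543 in sh-Scb, and CCR4 24.1% ± 1.44 in sh-SOX4 and 13.8% ± 0.386 in sh-Scb (SD, n = 2).

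FN1, fibronectin, the matrix ligand of integrins that contain ITGA5 or ITGA4, had 4.29 and 7.05 CPM in sh-SOX4, against 3.17 and 3.42 CPM in sh-Scb, a log2 fold change of 0.78 (edgeR adjusted p = 0.0300). Both groups were low, and without sh-SOX4 replicate 2 the value was 0.38 with an adjusted p of 0.311. Of the fibroblast markers, COL1A1 had 17.2 and 17.4 CPM in sh-SOX4, against 24.4 and 25.8 CPM in sh-Scb, PDGFRB had 2.11 and 2.32 CPM in sh-SOX4, against 2.35 and 3.19 CPM in sh-Scb, COL1A2 was at 0, and COL3A1 had at most 2 counts in any library.

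Related genes outside the 35 were read from 7 lists, with the same 44.1% of all IDs called as the measure. These lists too were chosen with earlier results known, and calls are more frequent among well-expressed genes, so their shares are descriptions. Of 9 tested integrin subunits of the other kinds, 5 fell and 0 rose, 55.6% called, with a median log2 fold change of -0.81. A further 4 were not tested. ITGB4, which pairs with ITGA6 alone, averaged 14.4 ± 2.21 CPM in sh-SOX4 and 25.3 ± 3.63 CPM in sh-Scb (SD, n = 2), a log2 fold change of -0.81 (edgeR adjusted p = 0.00114). ITGA7, another laminin receptor subunit, averaged 5.46 ± 0.451 CPM in sh-SOX4 and 13.9 ± 1.32 CPM in sh-Scb (SD, n = 2). ITGA2B, the platelet integrin subunit, averaged 1.04 ± 0.00061 CPM in sh-SOX4 and 5.19 ± 0.627 CPM in sh-Scb (SD, n = 2). ITGA3, also a laminin receptor subunit, averaged 33.8 ± 2.9 CPM in sh-SOX4 and 34.1 ± 4.5 CPM in sh-Scb (SD, n = 2) and did not pass, with a log2 fold change of -0.01 (edgeR adjusted p = 0.939).

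Of 28 genes of integrin inside-out signalling and actin linkage, 8 rose and 6 fell, 50.0% called. VCL, vinculin, which reinforces talin's link to actin, averaged 47.6 ± 0.774 CPM in sh-SOX4 and 90.2 ± 0.445 CPM in sh-Scb (SD, n = 2), a log2 fold change of -0.92 (edgeR adjusted p = 9.33e-07). CYTH1, cytohesin-1, which binds the ITGB2 tail, fell by 0.67, and ZYX, zyxin, a focal adhesion protein, rose by 0.52 on the log2 scale. Of 21 tested Ig-family genes of the second list, 5 rose and 4 fell, 42.9% called; CD84 and SLAMF6, both homophilic SLAM receptors, rose by 1.28 and 0.71, and CD96, a nectin-family receptor, fell by 0.91.

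Of 17 tested selectin and selectin ligand synthesis genes, 4 rose and 6 fell, 58.8% called. ADAM17, a protease that sheds proteins from the cell surface, fell by 0.39 on the log2 scale, and CHST2, a sulfotransferase that modifies sugar chains, rose by 0.68. Of 18 other chemoattractant receptors tested, most with a mean under 10 CPM, 2 rose and 3 fell, 27.8% called. PTGDR2, the prostaglandin D2 receptor of helper cells, fell by 1.01 on the log2 scale, while ACKR3, the scavenger receptor that also binds CXCL12, rose by 1.09 from low levels, averaging 5.46 ± 0.544 CPM in sh-SOX4 and 2.57 ± 0.120 CPM in sh-Scb (SD, n = 2).

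The list of chemoattractant signalling, receptor turnover and egress held the most calls of the 7. Of 22 tested genes, 14 were higher and 2 lower, 72.7% called, with a median log2 fold change of 0.29. Most of them had a mean of at least 10 CPM, and 62.7% of all IDs at that level were called. ELMO1, which joins DOCK2 in activating Rac, averaged 170 ± 6.78 CPM in sh-SOX4 and 90.3 ± 1.89 CPM in sh-Scb (SD, n = 2), a rise of 0.92 (edgeR adjusted p = 5.57e-07). CORO1A, coronin, an actin regulator needed for T cell egress, averaged 700 ± 19.0 CPM in sh-SOX4 and 437 ± 12.7 CPM in sh-Scb (SD, n = 2). GRK2, the kinase that desensitises chemokine and sphingosine 1-phosphate receptors, rose by 0.52 on the log2 scale. Of 8 tested matrix ligand genes 2 rose and 3 fell, 62.5% called. LAMB1, a laminin chain, HMMR, a hyaluronan-binding protein, and COL1A1, a collagen chain, fell by 0.82, 0.30 and 0.54.

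**Figure D4:**
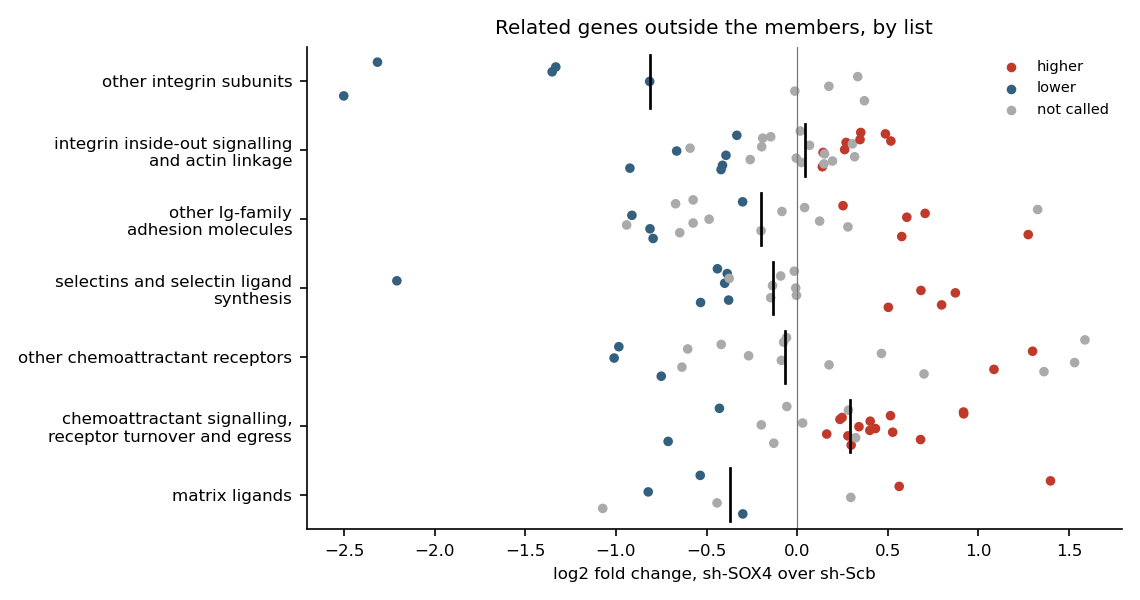
Log2 fold change of sh-SOX4 over sh-Scb for each tested gene of 7 lists of related genes, with vertical jitter within a row, colour for the call and a black line at the list median. The receptor signalling list lies mostly right of 0 with a median of 0.29, and all 5 called integrin subunits lie left of 0.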

How the data were processed

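RNA-seq libraries from 4 Jurkat samples were compared, 2 with sh-SOX4 and 2 with sh-Scb. Per the labels' protocols, TRIzol was used for extraction and a TruSeq kit for the libraries. The authors deposited raw counts for each Ensembl gene ID, as whole numbers without normalization. HISAT2 2.2.0, StringTie and hg38 are named in the submitters' processing notes. The sources used here do not say what each tool did, which annotation was used or whether strand was used. The control columns are named NC and were taken as sh-Scb because the other columns name SOX4.

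In R 4.3.3, edgeR 4.0.16 was used to drop IDs with low counts (filterByExpr, minimum count 10, minimum total 15), to compute TMM factors and to fit a robust quasi-likelihood model with group as its term. P-values were adjusted by Benjamini-Hochberg over 19897 IDs, with calls at 0.05. The SE is the size of the log2 fold change divided by the square root of F, and 95% intervals come from the model. The fit has 2 residual degrees of freedom. The labels do not say whether cultures were separate: the p-values reflect only how these samples vary, possibly for technical reasons. Libraries of a group differed beyond sampling noise (median chi-square 1.59 in sh-SOX4 and 1.70 in sh-Scb, against 0.455 under sampling alone). A floor of 3 counts equals 0.0819 to 0.103 CPM and covers counting error only.

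Exonic lengths, overlaps and gene coordinates are from GENCODE on GRCh38, the assembly that hg38 names. Symbols were matched to all 35 genes. Members and lists were chosen with earlier results of these data known. The naming rule gave all 35 genes, and from each related list the 3 called genes with the smallest adjusted p, of which 2 are not reported here; COL3A1, COL1A2 and the other marker genes were named as checks, and ITGA3, ICAM4 and ICAM5 after their values were seen. The pipeline was tested on simulated counts. Alternatives were other scalings and filters, a replicate block, DESeq2 1.42.0, limma 3.58.1 (voom), each library left out, a test against 1.2-fold and leaving out IDs with 50% or more of exonic bases shared. Figures were drawn with matplotlib 3.10.9.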

Additional observations from a re-analysis of the deposited data

How the results depend on the processing

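Over 13 other settings, 16 of the 25 called genes were called under every setting that gave a value, no called gene changed direction, and 20 kept their call whichever library was left out. ITGA2, ICAM1, FN1, CX3CR1 and S1PR1 lost theirs without at least 1 library, and CD58, ICAM3, ITGA1 and PECAM1 lost theirs only in the test against 1.2-fold. That test called 5348 IDs and, of the 35 genes, 7 higher and 9 lower. Leaving out 1 library gave 7467 to 8294 IDs called, 11 to 14 of the 35 genes higher and 10 to 11 lower, and a median of 0.020 to 0.107 over the 35. That median was -0.068 with library totals alone, where the median of all IDs tested was -0.109, beside -0.01 in the main fit. It was -0.065 with at least 10 CPM in 2 libraries, where 27 genes were tested and the median of all IDs was 0. The cause was not tested. Changes of sign concerned uncalled genes near 0. ITGA5 was at -0.068 with library totals and -0.032 with the 10 CPM filter, and ITGB3 at -0.094 with library totals. Leaving out a library gave -0.056 to 0.003 for ITGB1, -0.061 to 0.011 for ITGB2, -0.094 to 0.107 for ITGB3, -0.027 to 0.022 for TLN1 and -0.209 to 0.090 for ITGAE. Without a filter 8215 of 36854 IDs were called, 22.3%. The replicate numbers showed no pairing (correlation of deviations across genes -0.00356, 2 pairs). With the replicate block 8378 IDs were called, with 13 of the 35 genes higher and 10 lower, and ITGA2 and ICAM1 did not pass. Depth limits CD44, CCR9 and ITGB5, whose intervals span over 1 log2 unit. Among called genes, the intervals of CX3CR1 (0.264 to 1.306) and FN1 (0.216 to 1.347) do so too.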
